A study of Mus musculus with 6 samples.

Results

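The genes described here are 10 transcripts of the muscle atrophy program, read in RNA-seq data from mouse gastrocnemius, the large muscle of the calf. They were listed by name for their known role in atrophy, at a time when earlier results of these data were known, and make up 10 of the 23997 gene symbols listed for each library. Trim63 (MuRF1), Fbxo32 (atrogin-1), Fbxo30 (MUSA1) and Fbxo21 (SMART) encode ubiquitin ligases or their substrate-binding subunits. Foxo1, Foxo3 and Foxo4 encode forkhead transcription factors. Klf15 and Hdac4 encode regulators that act beside them, and Gadd45a encodes a stress-induced nuclear protein linked to fiber atrophy.

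Muscle fibers lose mass when proteins are degraded faster than they are made, and much of this degradation runs through ubiquitin ligases that tag proteins for the proteasome. FoxO factors switch on several of these ligase genes, together with genes of autophagy. Growth signals through PI3K and AKT keep FoxO factors phosphorylated and out of the nucleus, whereas fasting, glucocorticoids, myostatin and loss of the nerve raise the output of the program by different routes. Transcript levels of the FoxO genes themselves do not report how much of the protein is nuclear.

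Muscle was taken from 3 HrasG12V mice (mice 2276, 2278 and 2279) and 3 wild-type (WT) littermates (mice 2277, 2280 and 2281), with 1 library per mouse. The mice were 21 days old, untreated, and of a mixed SWR/J, 129S1/SvImJ and C57BL/6J background. The HrasG12V mice model Costello syndrome, which is caused by activating HRAS mutations, and carried Caggs-Cre together with 1 Hras allele that encodes valine for glycine in the protein's nucleotide-binding region. The WT mice are given in the labels both as Hras+/+ and as Caggs-Cre-/HrasflG12V/+, so the controls lacked the Cre transgene and kept the floxed allele unrecombined. Caggs-Cre is driven by a promoter active in nearly all tissues, so the mutant allele was not limited to muscle fibers, and effects of Cre and of the mutant allele cannot be told apart. The comparison asks whether transcripts of the atrophy program differ in the skeletal muscle of this model. The sex, litter and sequencing batch of the mice are not in the labels. Summed Y-linked transcripts were at 0.170 FPKM in WT mouse 2277 and 0.0922 FPKM in HrasG12V mouse 2276, against 70.7 to 80.04 FPKM in the other 4 mice, so mouse 2276 was the only mutant without them.

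Values are FPKM, the fragments mapped to a gene per kilobase of its transcript, corrected for library size and scaled between libraries by the authors with Cuffnorm. They give levels per length, so genes can be set side by side within a mouse, except that in mouse 2276 levels shifted with transcript length, as given below. The methods state a nominal sequencing depth, but the read counts behind each FPKM are unknown. Genotypes were compared with limma on log2(FPKM + 0.1) over the 13359 genes whose mean reached 0.5 FPKM, and all 10 genes passed this filter with no mouse at 0. Fold changes below are on that scale, positive when higher in HrasG12V, with their standard error (SE). P-values are two-sided and measure the spread between these mice only.

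Some properties of the libraries touch every value that follows. Mouse 2276 stood apart, with an FPKM sum of 814013 against 413020 to 547122 in the other 5 libraries, and 29.9% of that sum in its 10 most abundant genes against 18.6% to 24.2%. Short transcripts read high and long ones low in this library, as given beside the genes below. WT mouse 2281 had almost no slow fiber transcript, with Myh7 at 0.443 FPKM against 95.2 and 96.5 in the other WT mice and 99.6 to 245 in the HrasG12V mice. The fiber marker Mylpf was abundant in all 6 libraries, at 10760 to 36114 FPKM, whereas Acta1, Atp2a1 and Myh4 were listed at 0 in all 6 and Ckm, Tnnt3 and Myh1 in some, so levels of these fiber genes cannot be used as a reference. The summed FPKM of 8 B and T cell markers was 1.29 to 1.62 in WT and 2.32, 92.4 and 81.9 in mice 2276, 2278 and 2279, with 4 of the 8 above all WT mice and only Ms4a1 at 0 in any library (mouse 2276). The sum of 7 myeloid markers was 13.4 to 19.3 in WT and 32.6, 163 and 78.7 in the mutants, with 3 of 7 (S100a8, S100a9 and Ngp) above all WT mice. Ptprc, Csf1r, Cd68 and Itgam overlapped, and Ptprc was lower in mouse 2276 (0.358 FPKM) than in any WT mouse (0.703 to 1.05 FPKM). The 3 endothelial markers summed to 115 to 139 in WT and 87.6 to 101 in HrasG12V, with 1 of 3 below all WT mice, and the 5 adipocyte markers to 401 to 704 and 774 to 817, with 1 of 5 above. That gene, Fabp4, made up most of the adipocyte sums, at 395 to 678 FPKM in WT and 713 to 769 FPKM in HrasG12V. Adipoq, Plin1, Lep and Cidec overlapped between genotypes. Sums overlapped between genotypes for 5 fibroblast and tendon markers (1111 to 2618 in WT and 412 to 2145 in HrasG12V), 4 Schwann cell markers (133 to 370 and 226 to 615) and 3 erythroid markers (157 to 176 and 141 to 478). Of these markers only Tnmd, a tendon gene, did not overlap, at 34.3 to 85.7 FPKM in WT and 9.75 to 32.8 FPKM in HrasG12V. Their part in the results was not tested, and in bulk muscle fewer fibers and less RNA per fiber cannot be told apart. Hras itself, summed over both alleles, was 36.8, 36.0 and 51.8 FPKM in WT and 58.8, 28.9 and 16.0 FPKM in HrasG12V mice (adjusted p = 0.797 in limma), which does not check the labels because the mutation changes a base and not the amount of transcript.

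In WT gastrocnemius the 10 genes spanned levels from Trim63, with a mean of 91.5 FPKM at the 94.4th percentile of the genes tested, to Hdac4, with a mean of 4.96 FPKM at the 42.0th percentile. Per length, the order of the WT means ran Trim63, Foxo4, Fbxo32, Klf15, Foxo1, Gadd45a, Foxo3, Fbxo21, Fbxo30 and Hdac4. The ranges of the 3 WT mice overlapped for the neighbours Fbxo32 and Klf15, Foxo1 and Gadd45a, and Fbxo21 and Fbxo30, so these pairs were not separated by their spread. Within each WT mouse, however, Fbxo32 was above Klf15 and Fbxo21 above Fbxo30, whereas Foxo1 and Gadd45a changed places between mice. Foxo4 lay above Fbxo32 by a narrow margin, with its lowest WT value at 43.96 FPKM and the highest Fbxo32 value at 43.77 FPKM. Foxo4 was the most abundant FoxO transcript in each of the 6 mice.

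None of the 10 genes differed between genotypes after adjustment over all genes in limma, and 1 of 10, Fbxo30, had an unadjusted p below 0.05. Among all genes tested the share under 0.05 was 10.2% before adjustment and 0.0599% after it, so 10% of the genes described here is near the background. Taken by direction, 4.99% of all genes had such a p with a lower level in HrasG12V, as Fbxo30 did, and 5.18% with a higher level. The level in every mouse is plotted for each gene.

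**Figure D1:**
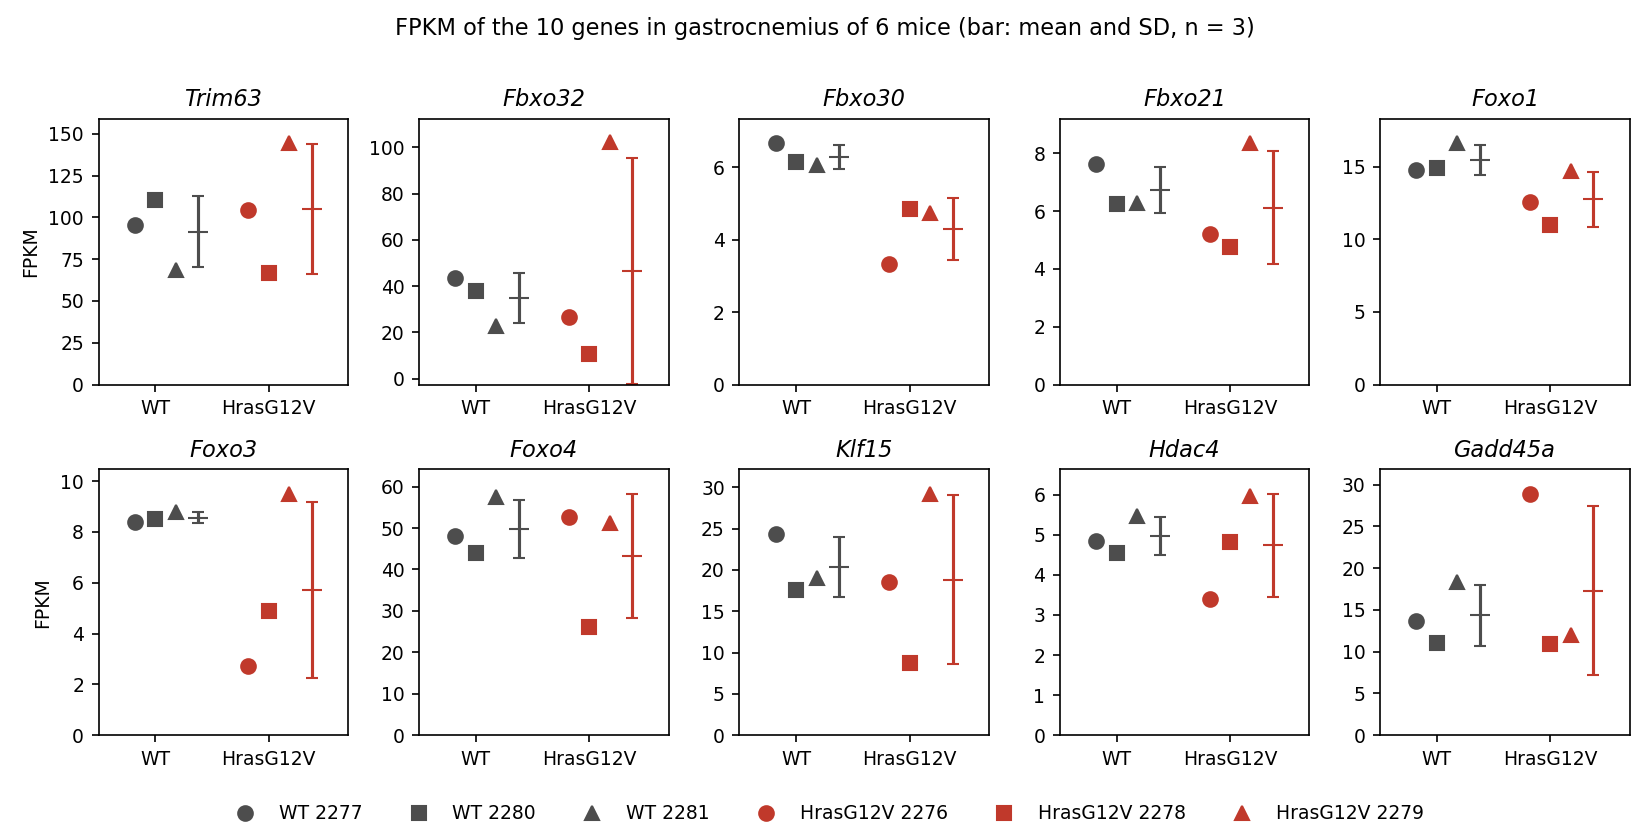
FPKM of the 10 genes (one panel per gene, each with its own linear axis) in the 3 WT and 3 HrasG12V mice, one point per mouse, with the mean and SD of each group beside the points. The WT mice lie close together in most panels, whereas the HrasG12V mice spread widely for Fbxo32 (10.9 to 102 FPKM) and Foxo3 (2.73 to 9.51 FPKM), and for Fbxo30 and Foxo1 every HrasG12V point lies below every WT point.

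Trim63 encodes the muscle RING-finger ligase that ubiquitinates myosin heavy chain and other thick filament proteins, and lies on chromosome 4 at 134315120 to 134329629 (plus strand, GRCm38, as for the genes below). Its level was 95.8, 110.3 and 68.4 FPKM in WT mice 2277, 2280 and 2281 and 104, 66.7 and 145 FPKM in HrasG12V mice 2276, 2278 and 2279. The highest and the lowest of the 6 values both came from HrasG12V mice, so the groups overlapped over the whole WT range. The means were 91.5 ± 21.3 FPKM (SD, n = 3) in WT and 105 ± 38.9 FPKM in HrasG12V, a log2 fold change of 0.16 (SE 0.35, adjusted p = 0.917 in limma). The 95% interval of the fold ran from 0.629 to 1.99, which covers both a lower and a higher Trim63 level in HrasG12V. The sign rested on single mice, since the log2 fold change was −0.04 without WT mouse 2281, the library with little slow fiber transcript, and −0.10 without HrasG12V mouse 2279.

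The promoter of Trim63 is shown because it was the only one, among the 8 genes with an entry in the RefSeq promoter table, to hold any of 3 short motifs of the factors that drive this program. The window runs from 250 bases before to 50 bases after the start site and is chr4:134314870-134315169 on the plus strand of GRCm38.p6, written 5′ to 3′ with the motif matches in capitals.
Trim63 promoter: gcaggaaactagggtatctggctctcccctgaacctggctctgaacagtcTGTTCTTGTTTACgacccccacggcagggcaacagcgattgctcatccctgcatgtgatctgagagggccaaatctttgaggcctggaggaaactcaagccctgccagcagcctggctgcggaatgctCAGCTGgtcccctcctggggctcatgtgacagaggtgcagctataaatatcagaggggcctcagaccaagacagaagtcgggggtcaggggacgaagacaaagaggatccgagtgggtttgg
The first block of capitals joins 2 adjacent matches that do not overlap, both read on the minus strand. They are the glucocorticoid receptor hexamer AGAACA, starting 200 bases before the start site, and the FoxO core GTAAACA, starting 194 bases before it. The second block, 72 bases before the start site, is the E-box CAGCTG bound by myogenic factors, which reads the same on both strands. Searched on both strands, AGAACA occurred in 19.0%, CAGCTG in 16.3% and GTAAACA in 3.65% of all 32851 promoter windows of this length. The windows of Fbxo30, Fbxo21, Foxo1, Foxo3, Klf15, Hdac4 and Gadd45a held none of the 3. Those of Hdac4 (chromosome 1 from 92180292 to 92180591) and Fbxo30 (chromosome 10 from 11281337 to 11281636) lie inside the genes as placed below. Bases before the outermost annotated start of these genes were not searched. These are matches of letters and not sites shown to be bound.

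Fbxo32 encodes the muscle F-box protein that, in an SCF ligase, takes MyoD and the translation factor eIF3f as substrates, and lies on chromosome 15 from 58175879 to 58214932 on the minus strand. Its level was 43.8, 37.99 and 22.8 FPKM in WT mice 2277, 2280 and 2281 and 26.7, 10.9 and 102 FPKM in HrasG12V mice 2276, 2278 and 2279. Mouse 2278 had less Fbxo32 transcript than any WT mouse, mouse 2279 had more than any, and mouse 2276 lay within the WT range. The highest HrasG12V value was 9.40 times the lowest, against 1.92 times among the WT mice. The mean FPKM was higher in HrasG12V, 46.6 ± 48.8 against 34.9 ± 10.8 FPKM (SD, n = 3 each), through mouse 2279, whereas the difference of the mean log2 values ran the other way. That log2 fold change was −0.12 (SE 0.78, adjusted p = 0.980 in limma), with a 95% interval of the fold from 0.255 to 3.35. Without mouse 2279 the log2 fold change was −0.97, and without mouse 2278 it was 0.64, so the average described neither mouse. Within single mice Trim63 exceeded Fbxo32 by 2.19 to 2.99 times in WT and by 3.91, 6.14 and 1.41 times in mice 2276, 2278 and 2279, outside the WT range in all 3 HrasG12V mice but on both sides of it. In mouse 2276 genes of like length had median log2 differences from the WT mean of 0.42 for Trim63 (1886 bases) and −0.52 for Fbxo32 (6976 bases). The part of length in this ratio was not tested, so the place of mouse 2276 above the WT range is uncertain.

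Fbxo30 encodes the F-box protein of an SCF ligase that is induced on denervation and restrained by BMP signaling, and lies on chromosome 10 from 11281330 to 11298052 on the plus strand. Its level was 6.68, 6.14 and 6.06 FPKM in the WT mice and 3.32, 4.85 and 4.74 FPKM in the HrasG12V mice, in the order above. All 3 HrasG12V mice lay below all 3 WT mice, whose values differed little. The mean was 6.29 ± 0.336 FPKM (SD, n = 3) in WT and 4.30 ± 0.851 FPKM in HrasG12V, a log2 fold change of −0.56 (SE 0.18) or a fold of 0.680 (95% interval 0.501 to 0.925), with an unadjusted p of 0.0213 and an adjusted p of 0.446 in limma. The unadjusted call was lost in some settings. Leaving out WT mouse 2277, 2280 or 2281 gave limma p-values of 0.0768, 0.0576 and 0.0518, and rescaling all libraries to the same total FPKM gave 0.224. In the library of mouse 2276, genes of like length (5060 bases for Fbxo30) were lower by a median log2 difference of −0.24 from the WT mean, and Fbxo30 by −0.90. Removing the length trend from each library left a log2 fold change of −0.42 (unadjusted p = 0.0173 in limma).

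Fbxo21, which encodes another F-box subunit of an SCF ligase found on denervation, lies on chromosome 5 from 117976730 to 118010201 on the plus strand. It was at 7.63, 6.23 and 6.28 FPKM in WT and at 5.22, 4.77 and 8.36 FPKM in HrasG12V mice. Mice 2276 and 2278 lay below all WT mice and mouse 2279 above them. The log2 fold change was −0.17 (SE 0.24, adjusted p = 0.859 in limma), and −0.41 (unadjusted p = 0.0493 in limma) without mouse 2279.

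Foxo1, a FoxO factor whose forced expression in muscle reduces fiber size, lies on chromosome 3 from 52268336 to 52353221 on the plus strand. Its level was 14.8, 14.9 and 16.7 FPKM in WT mice 2277, 2280 and 2281 and 12.6, 10.97 and 14.7 FPKM in HrasG12V mice 2276, 2278 and 2279. No HrasG12V mouse reached the lowest WT mouse, but the margin was narrow, with 14.71 FPKM in mouse 2279 against 14.77 FPKM in mouse 2277. The log2 fold change was −0.28 (SE 0.17, adjusted p = 0.623 in limma), from means of 15.5 ± 1.04 and 12.8 ± 1.88 FPKM (SD, n = 3 each). Its transcript is among the longest here at 8665 bases, and the log2 fold change was −0.06 once the length trend of each library was removed. Fbxo30 and Foxo1 were the 2 of the 10 genes, or 20%, with no overlap between genotypes and lower values in HrasG12V, against 10.4% of all genes tested.

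Foxo3, the FoxO factor best known for inducing Fbxo32 and autophagy genes in muscle, lies on chromosome 10 from 42181841 to 42276755 on the minus strand. It was nearly uniform in WT mice at 8.38, 8.52 and 8.79 FPKM, and was 2.73, 4.87 and 9.51 FPKM in HrasG12V mice 2276, 2278 and 2279. Mice 2276 and 2278 lay below the WT range and mouse 2279 above it. Foxo3 had the lowest log2 fold change of the 10 genes at −0.75 (SE 0.42, adjusted p = 0.592 in limma), and its 95% interval of the fold, 0.297 to 1.18, included no difference. The value depended on which HrasG12V mouse was used, being −1.21 (unadjusted p = 0.00461 in limma) without mouse 2279 and −0.33 (unadjusted p = 0.296) without mouse 2276. Genes of like length (6848 bases) had a median log2 difference of −0.51 from the WT mean in mouse 2276, where Foxo3 was at −1.61, and of −0.04 in mouse 2278, where Foxo3 was at −0.80.

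Foxo4, an X-linked FoxO factor (chromosome X from 101254528 to 101260873, plus strand), was at 48.0, 44.0 and 57.4 FPKM in WT and at 52.7, 26.1 and 51.3 FPKM in HrasG12V mice. Only mouse 2278 lay outside the WT range, below it. The log2 fold change was −0.26 (SE 0.31, adjusted p = 0.832 in limma) and was 0.07 without that mouse. The ratio of Foxo4 to Foxo3 was 5.16 to 6.53 in WT mice and 5.36 and 5.39 in mice 2278 and 2279, whereas it was 19.3 in mouse 2276, in which Foxo3 was lowest and genes of like length had median log2 differences of 0.08 for Foxo4 (3162 bases) and −0.51 for Foxo3.

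Klf15 encodes a glucocorticoid-induced factor that raises amino acid breakdown, and lies on chromosome 6 from 90462576 to 90475238 on the plus strand. Its level was 24.4, 17.6 and 19.0 FPKM in WT and 18.6, 8.70 and 29.2 FPKM in HrasG12V mice 2276, 2278 and 2279. As for Fbxo32, mouse 2278 was below every WT mouse and mouse 2279 above every one. The log2 fold change was −0.26 (SE 0.43, adjusted p = 0.884 in limma), and 0.21 without mouse 2278.

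Hdac4 encodes a class IIa histone deacetylase that represses MEF2 targets and is induced when muscle loses its nerve. It lies on chromosome 1 from 91928779 to 92195699 on the minus strand. Its level was 4.85, 4.55 and 5.48 FPKM in WT and 3.40, 4.83 and 5.98 FPKM in HrasG12V mice, with mouse 2276 below and mouse 2279 above the WT range. The log2 fold change was −0.10 (SE 0.23, adjusted p = 0.924 in limma) and changed sign to 0.12 without mouse 2276. In that mouse Hdac4 was at a log2 difference of −0.53 from the WT mean, close to the median of −0.57 for genes of like length (8100 bases).

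Gadd45a, induced by ATF4 and by denervation, lies on chromosome 6 from 67035096 to 67037457 on the minus strand. It was at 13.7, 11.1 and 18.3 FPKM in WT and at 28.9, 10.97 and 12.0 FPKM in HrasG12V mice 2276, 2278 and 2279. One mouse, 2276, carried the difference in means of 14.4 ± 3.67 and 17.3 ± 10.1 FPKM (SD, n = 3 each). The log2 fold change was 0.15 (SE 0.40, adjusted p = 0.935 in limma) and was −0.29 without mouse 2276. Gadd45a has the shortest transcript of the 10 genes at 1223 bases, and genes of like length in mouse 2276 had a median log2 difference of 0.72, beside 1.03 for Gadd45a. Exons of Fbxo32, Foxo1, Hdac4 and Gadd45a overlap genes annotated on the opposite strand. The libraries were stranded, but the strand setting of the authors' quantification is not given in the sources used here, so reads of such pairs may not have been kept apart. The partner of Gadd45a, E230016M11Rik, was at 4.17 to 6.41 FPKM in WT and at 6.99, 3.41 and 3.84 FPKM in mice 2276, 2278 and 2279.

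**Figure D2:**
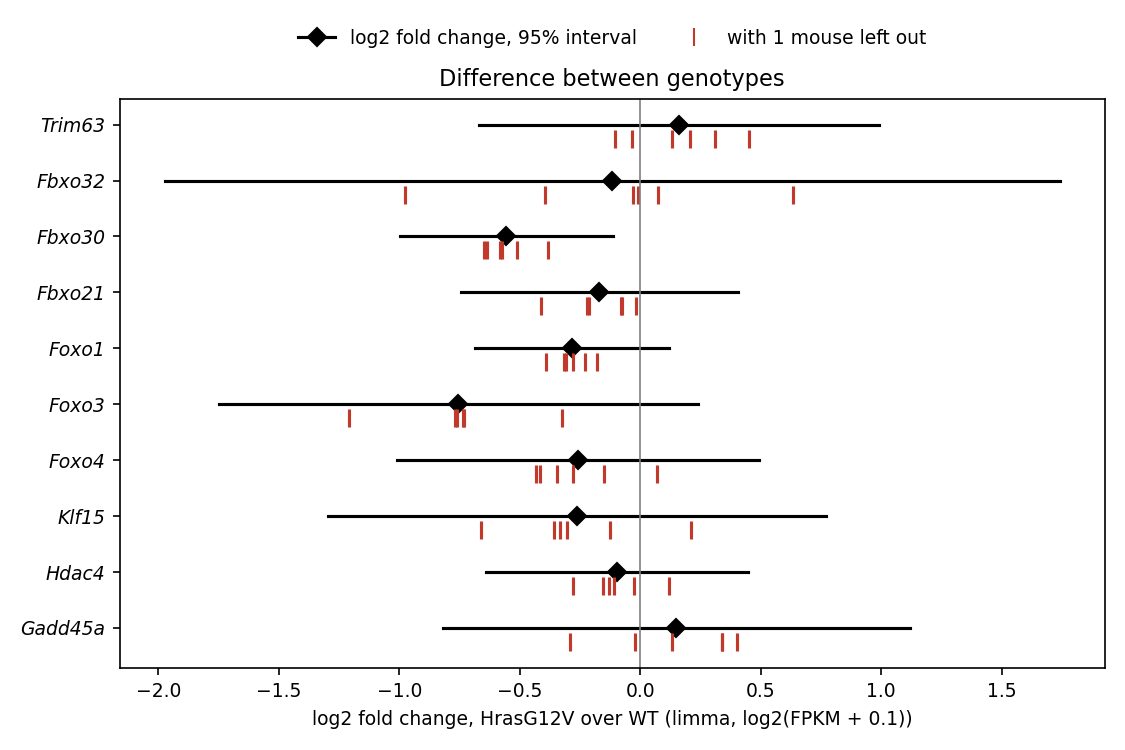
Log2 fold change of each of the 10 genes (HrasG12V minus WT, on the log2(FPKM + 0.1) scale) with its 95% interval from limma, beside the values obtained when each mouse was left out in turn. The interval of Fbxo30, −0.998 to −0.113, is the only one that does not cross 0, and the interval of Fbxo32, −1.97 to 1.74, is the widest.

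The most general feature of these genes was the spread among the HrasG12V mice and not a shift between genotypes. The SD of the log2 values was larger in HrasG12V than in WT for 10 of 10 genes, and at least 2 times as large for 9 of 10. Most genes of the libraries did the same, 86.8% and 66.4% of those tested, so the wider spread was not particular to the atrophy genes. The median SD of the log2 values was 0.18 in WT and 0.57 in HrasG12V for the 10 genes, against 0.13 and 0.42 over all genes. The mean log2 value was lower in HrasG12V for 8 of the 10 genes, against 53.4% of all genes, and the mean FPKM for 7 of the 10, the difference being Fbxo32. The 10 genes had a median log2 fold change of −0.21, against −0.03 over all genes. Both values rested on mouse 2278, without which 5 of the 10 log2 fold changes were below 0 and their median was 0.03. The median was also −0.41 without mouse 2279, −0.12 without WT mouse 2277 and −0.08 with the length trend removed.

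The mice differed in how they departed from WT. Mouse 2278 was the lowest HrasG12V mouse for 7 of the 10 genes (Trim63, Fbxo32, Fbxo21, Foxo1, Foxo4, Klf15 and Gadd45a), against 31.2% of all genes. Mouse 2279 was the highest for 7 of 10 (Trim63, Fbxo32, Fbxo21, Foxo1, Foxo3, Klf15 and Hdac4), against 28.5%. The median log2 difference of the 10 genes from the WT mean was −0.31 in mouse 2276, −0.48 in mouse 2278 and 0.21 in mouse 2279, whereas that of all genes was 0.04, −0.08 and −0.04. The genes share these libraries and are not independent of each other, so these counts describe the mice and were not tested. Both mice 2278 and 2279 had high B and T cell marker sums (92.4 and 81.9 FPKM), while their fibroblast and tendon sums were 2145 and 424 FPKM.

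**Figure D3:**
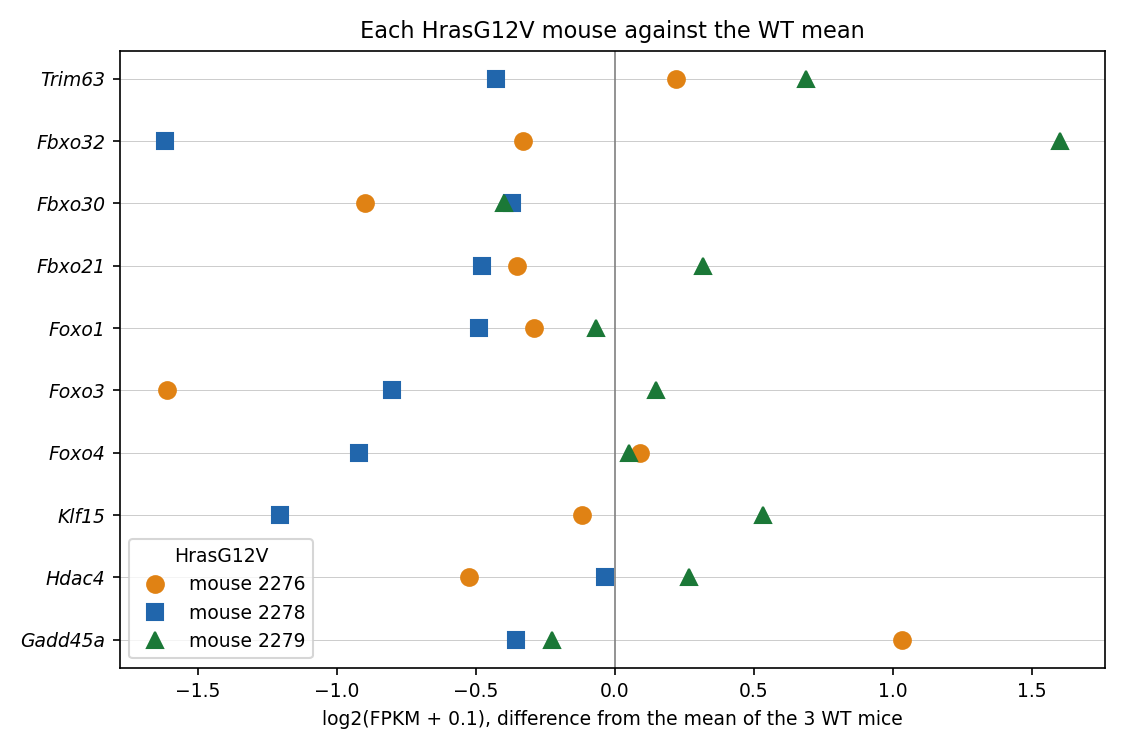
Log2 difference of each of the 10 genes from the WT mean, one point per HrasG12V mouse, with 0 as the WT mean. Fbxo32 runs from −1.62 in mouse 2278 to 1.60 in mouse 2279, Foxo3 is lowest in mouse 2276 at −1.61, and only Fbxo30 and Foxo1 lie below 0 in all 3 mice.

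Some of the 10 genes went up and down together over the 6 mice. Pearson's r of the log2 values was 0.91 between Fbxo32 and Klf15, 0.90 between Fbxo32 and Fbxo21, 0.89 between Trim63 and Fbxo32, 0.88 between Fbxo21 and Klf15, and 0.85 between Foxo4 and Klf15. Foxo3 went with Hdac4 (r = 0.86), Fbxo30 (0.84), Fbxo21 (0.75) and Foxo1 (0.73), while Hdac4 and Fbxo30 were less alike (0.59). Foxo3 and Gadd45a ran in opposite directions (r = −0.65). In mouse 2276 the medians of genes of like length run the same way as Foxo3, Hdac4, Fbxo30 and Gadd45a, at −0.51, −0.57, −0.24 and 0.72 in that order, and the part of length in these correlations was not tested. Foxo3 and Fbxo32 shared less, with r = 0.51. These values describe 6 libraries with 3 widely spread mutants and carry no p-value. Among the 7889 genes with a mean of at least 5 FPKM, the patterns most like that of Trim63 were those of Id3 (r = 0.98), Cited2 (0.98) and Cnksr1 (0.97). The patterns most like that of Fbxo32 were those of Bnip3 (r = 0.99), Zfp395 (0.98) and Herpud2 (0.98). Bnip3, a mitophagy receptor gene and a known FoxO3 target, had levels of 225, 184 and 134 FPKM in the WT mice. In the HrasG12V mice it was at 156, 83.0 and 299.98 FPKM, and the 6 mice ran in the same order as for Fbxo32. Since Bnip3 was picked by its r with Fbxo32, that order follows from the choice, and shared regulation was not tested.

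Genes around the program were grouped in 7 lists, 146 distinct genes tested, and read in the same limma fit. With an unadjusted p below 0.05, 4 genes were higher and 10 lower in HrasG12V, together 9.59% against 10.2% of all genes, and 1, Chrna1, passed the adjusted limit. These counts moved with single mice, to 34 of 146 (23.3%, against 29.9% of all genes) without mouse 2276, to 32 (21.9%, against 11.3%) without mouse 2279, to 9 (6.16%, against 4.72% of all genes) without WT mouse 2277 and to 8 (5.48%, against 4.53%) without WT mouse 2281. For the 10 genes described above the counts were 1 without mouse 2276 and 3 (Fbxo30, Fbxo21 and Foxo3) without mouse 2279.

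**Figure D4:**
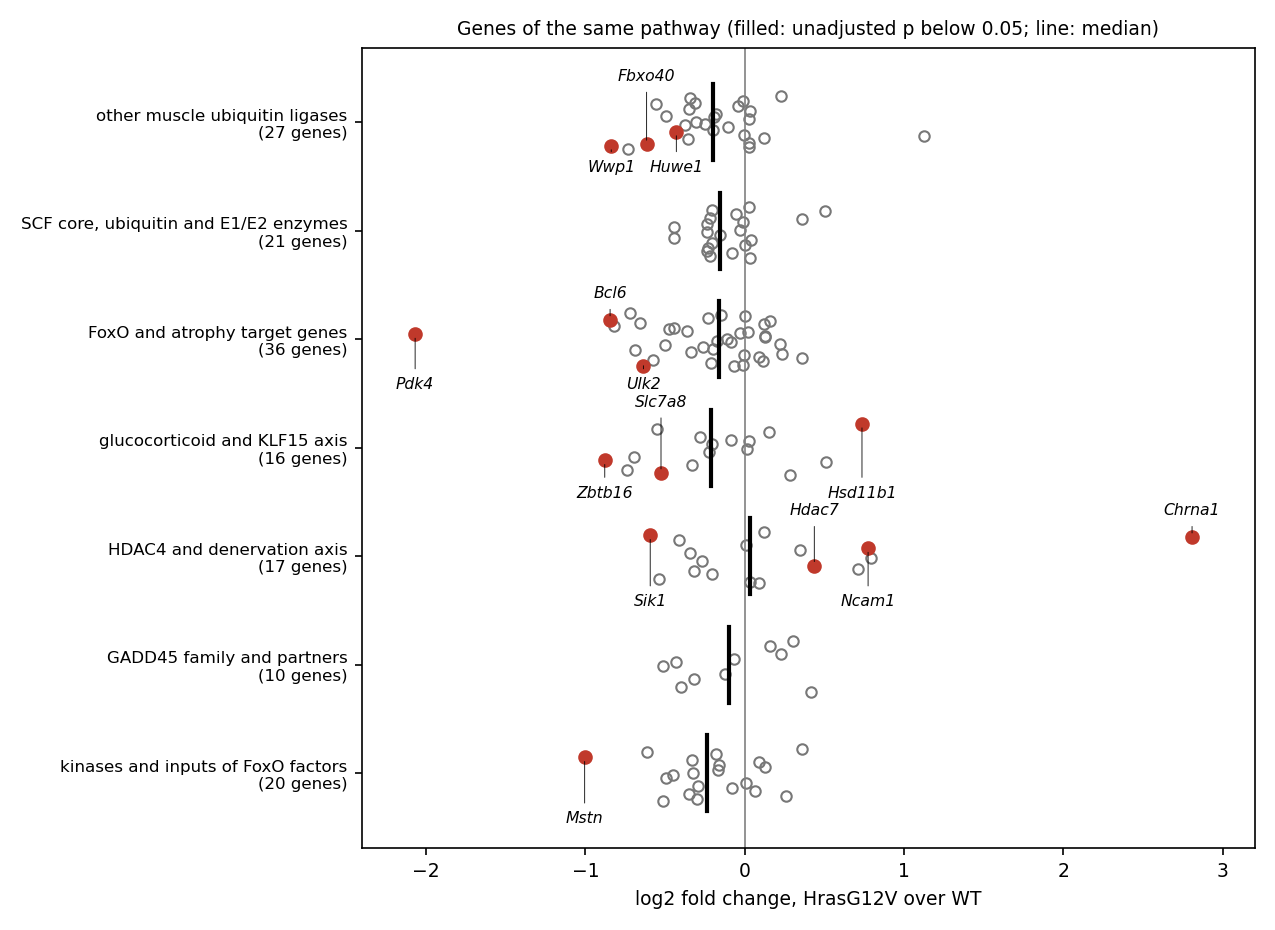
Log2 fold changes (HrasG12V minus WT) of the genes tested in 7 lists around the atrophy program, one point per gene, with genes at an unadjusted p below 0.05 in limma filled and the list median as a line. With all 6 mice medians lie between −0.24 and 0.03, and they move or change sign when single HrasG12V mice are left out, and Chrna1, at 2.81 in the list of HDAC4 and denervation genes, stands far above the other genes.

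Among 27 other ubiquitin ligases expressed in muscle, 3 were lower and none higher at an unadjusted p below 0.05, against 4.99% of all genes lower, with a list median of −0.20. The count lower was 7 without mouse 2276 (against 17.3% of all genes lower) and 6 without mouse 2279 (against 6.56%). It was 1 without WT mouse 2277 (against 298 of 13380 genes) or 2281 (against 302 of 13388) and 0 with equal total FPKM (against 335 of 13492). Wwp1, a HECT-type ligase, was at 72.4, 65.0 and 80.2 FPKM in WT and 34.9, 38.7 and 48.8 FPKM in HrasG12V mice, without overlap, for a log2 fold change of −0.84 (SE 0.21, unadjusted p = 0.00553, adjusted p = 0.381). With equal total FPKM its unadjusted p was 0.0543. Fbxo40, a muscle F-box gene whose product targets IRS1, was at 93.4, 89.9 and 97.7 FPKM in WT and 56.3, 59.8 and 67.7 FPKM in HrasG12V mice, again without overlap (log2 fold change −0.62, SE 0.18, unadjusted p = 0.0131). Its unadjusted p was 0.058 without WT mouse 2277, 0.0571 without WT mouse 2281 and 0.0959 with equal total FPKM. Huwe1, a large HECT ligase, had a log2 fold change of −0.43 (unadjusted p = 0.0375), which passed the unadjusted limit without each HrasG12V mouse but not without WT mouse 2277 (unadjusted p = 0.122), 2280 (unadjusted p = 0.092) or 2281 (unadjusted p = 0.111). It also missed the limit with the length trend removed (unadjusted p = 0.457), quantile normalization (0.106) and equal total FPKM (0.257). Fbxl22, a sarcomeric F-box gene, had the highest value of the list at 1.12 but was 22.2, 13.9 and 2.25 FPKM in the mutants against 2.86 to 6.15 FPKM in WT (unadjusted p = 0.215). Of 21 genes for the SCF core, ubiquitin and its conjugating and deubiquitinating enzymes, none had an unadjusted p below 0.05 and none passed the adjusted limit in limma, and the median was −0.16, from −0.45 for the deubiquitinase gene Usp2 to 0.51 for the ubiquitin fusion gene Rps27a. Without mouse 2276, 4 of the 21 were lower (against 17.3% of all genes), and the median was −0.02 without mouse 2278.

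Of 36 FoxO and atrophy target genes, 3 were lower and none higher at an unadjusted p below 0.05, against 4.99% of all genes lower, with a median of −0.16. Without mouse 2279 the count was 11 lower (against 6.56% of all genes) and the median −0.40. Without mouse 2278 it was 1 higher and 2 lower (against 4% and 5.58% of all genes), and the median turned to 0.08. The count lower was 6 without mouse 2276 (against 17.3% of all genes lower) and 1 without WT mouse 2281 (against 302 of 13388 genes). Pdk4, the kinase that shuts off pyruvate dehydrogenase in fasting and a FoxO1 target, was at 1241, 857 and 681 FPKM in WT and 239.9, 101 and 405 FPKM in HrasG12V mice, so all 3 mutants lay below all WT mice. Its log2 fold change was −2.07 (SE 0.55, unadjusted p = 0.00788, adjusted p = 0.382), and the unadjusted p stayed below 0.05 in all 6 sets of 5 mice. Bcl6, a transcriptional repressor gene, had a log2 fold change of −0.84 (unadjusted p = 0.0147, and 0.0515 without WT mouse 2281). Ulk2, an autophagy kinase gene, had one of −0.64 (unadjusted p = 0.0299), which, of the 6 sets of 5 mice, passed the limit only in that without mouse 2279. Its unadjusted p was 0.0507 to 0.0997 in the other 5 sets, 0.0764 with quantile normalization and 0.154 with equal total FPKM. The highest value of the list was that of Tgif1, at 0.36 (unadjusted p = 0.114). Median differences of this list from the WT mean were −0.04, −0.64 and 0.22 in mice 2276, 2278 and 2279.

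Of 16 glucocorticoid and KLF15 axis genes tested, 1 was higher and 2 lower, against 5.18% and 4.99% of all genes, with a median of −0.21. Without mouse 2278 these were 2 higher and 1 lower (against 4% and 5.58% of all genes) with a median of −0.03. Without mouse 2276 or 2279 they were 1 higher and 4 lower, with medians of −0.29 and −0.33. Of all genes, 12.6% were higher and 17.3% lower without mouse 2276, and 628 and 869 of 13247 without mouse 2279. Zbtb16, a zinc finger factor gene that glucocorticoids induce, was at 35.7, 31.8 and 27.4 FPKM in WT and 16.2, 17.6 and 17.4 FPKM in HrasG12V mice. The mutants were tightly grouped and all below WT (log2 fold change −0.88, SE 0.17, unadjusted p = 0.00146, adjusted p = 0.288). Hsd11b1, which encodes the enzyme that regenerates active glucocorticoid in tissue, was at 4.20, 3.94 and 3.06 FPKM in WT and 5.06, 6.14 and 7.77 FPKM in HrasG12V mice, without overlap (0.74, SE 0.21, unadjusted p = 0.0116). This call was lost with equal total FPKM (unadjusted p = 0.140) and with the length trend removed (0.0563). Slc7a8, an amino acid transporter gene, had a log2 fold change of −0.53 (unadjusted p = 0.0332), and its p was 0.0905 without mouse 2278, 0.0825 without mouse 2279, 0.0817 without WT mouse 2277, 0.122 without WT mouse 2281, 0.0725 with equal total FPKM, 0.0533 with the length trend removed and 0.0544 with no moderation.

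Of 17 HDAC4 and denervation axis genes tested, 3 were higher and 1 lower, against 5.18% and 4.99% of all genes, with a median of 0.03. Without mouse 2276 these were 6 higher and 2 lower, against 12.6% and 17.3% of all genes, and the median turned to −0.17. With the length trend removed 6 were higher, against 858 of 13260 genes, and the median was 0.16. Chrna1, the acetylcholine receptor alpha subunit gene that spreads along the fiber when the nerve is lost, was at 8.70, 11.11 and 11.03 FPKM in WT and 82.3, 54.5 and 83.4 FPKM in HrasG12V mice. The lowest mutant was far above the highest WT mouse, for a log2 fold change of 2.81 (SE 0.23, adjusted p = 0.0252 in limma). Over the 6 sets of 5 mice its log2 fold change was 2.69 to 3.01, and the adjusted p was 0.00412 and 0.0131 without mice 2276 and 2278 but 0.0695 without mouse 2279 and 0.165, 0.145 and 0.0983 without WT mice 2277, 2280 and 2281. Ncam1, a neural cell adhesion gene that fibers express when denervated, was at 4.45, 5.70 and 4.17 FPKM in WT and 9.35, 7.86 and 7.39 FPKM in HrasG12V mice (0.77, SE 0.18, unadjusted p = 0.00401, adjusted p = 0.355). Schwann cells also express Ncam1. All 4 Schwann cell markers had higher means in HrasG12V, by 1.86 to 2.31 times against 1.72 times for Ncam1, 1 of the 4 (Pmp22) had an unadjusted p below 0.05 (unadjusted p = 0.0368), none was at 0 in any library, and all 4 overlapped between genotypes. Their part in the Ncam1 result was not tested. Chrng, Chrnd and Runx1, of the same list, were named after their values were seen. Chrng, with means of 0.807 FPKM in WT and 0.570 FPKM in HrasG12V, had a log2 fold change of −0.54 (unadjusted p = 0.260 in limma). Chrnd had one of 0.79 (unadjusted p = 0.0931), with every mutant above every WT mouse. Runx1 had one of 0.71 (unadjusted p = 0.130), with overlap between genotypes. Sik1, a kinase gene whose product phosphorylates class IIa deacetylases, was at 12.3, 13.3 and 13.0 FPKM in WT and 8.67, 8.02 and 8.73 FPKM in HrasG12V mice (−0.59, SE 0.13, unadjusted p = 0.0035, adjusted p = 0.353), and its unadjusted p was 0.0786 with equal total FPKM. Hdac7, another class IIa deacetylase gene, had a log2 fold change of 0.44 (unadjusted p = 0.049), with p-values of 0.109 without mouse 2279, 0.097, 0.121 and 0.146 without WT mice 2277, 2280 and 2281, 0.275 with equal total FPKM, 0.0662 with the Y-linked covariate, 0.0517 with quantile normalization and 0.0509 with no moderation. Myogenin (Myog), which HDAC4 raises in denervated muscle by repressing Dach2, was named after its values were seen and was at 14.6, 20.2 and 21.0 FPKM in WT and 31.9, 16.9 and 12.3 FPKM in HrasG12V mice (log2 fold change 0.03, adjusted p = 0.990).

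None of the 10 genes of the GADD45 family and its partners passed the limit of 0.05 in limma, before or after adjustment. Without mouse 2276, 2 were lower, against 17.3% of all genes. Their median was −0.10 (−0.33 without mouse 2276 and 0.02 without mouse 2278), from −0.52 for Gadd45b to 0.42 for Atf3, whose values in single mice ran from 1.71 to 29.8 FPKM in WT. Of 20 kinases and inputs of FoxO factors, 1 was lower, against 4.99% of all genes, and the median was −0.24. The median rested on mouse 2276, being −0.03 without it and −0.03 with the length trend removed. The count lower ran from 0 without WT mouse 2280 (against 305 of 13337 genes) to 4 without mouse 2279 (against 6.56% of all genes). Mstn, which encodes myostatin, the secreted inhibitor of muscle growth, was at 24.7, 29.7 and 29.1 FPKM in WT and 8.80, 20.4 and 14.5 FPKM in HrasG12V mice. Every mutant lay below every WT mouse (log2 fold change −1.004, SE 0.31, unadjusted p = 0.0161, adjusted p = 0.433), and the unadjusted p was 0.0506 without WT mouse 2280 and 0.0978 with equal total FPKM. The highest value of this list was that of Foxo6, the remaining FoxO factor gene, at 0.36 (unadjusted p = 0.517), with 12.3 FPKM in mouse 2276 and 2.83 to 5.59 FPKM in the other 5 mice.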

How the data were processed

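RNA-seq values of 6 gastrocnemius muscles, 3 HrasG12V and 3 WT, were grouped by the genotype in the labels. The authors deposited FPKM per gene symbol from Cuffnorm, after bcl2fastq, TopHat and Cufflinks on GRCm38/mm10 (submitters' processing notes and methods). Versions of these tools, and the annotation: not given in the sources used here. The methods state a nominal depth per sample, but the read counts behind each value are unknown: low values showed no steps of whole reads, since the fullest 1% window of between-library ratios held 0.863% to 5.01% of low genes, and no count model was used.

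Genes with a mean of at least 0.5 FPKM (13359) were compared on log2(FPKM + 0.1) by limma (version 3.58.1, under R 4.3.3, empirical Bayes with abundance trend, no covariate, Benjamini-Hochberg over all genes, limit 0.05), after the method had been tested on simulated data. This fit gives each gene a variance shared by both genotypes. The SD of the log2 values was, however, larger in HrasG12V for 86.8% of genes, and at least 2 times as large for 66.4%. How far the p-values hold under such unequal spread was not tested, least of all in fits without an HrasG12V mouse. The methods name an unpaired test of FPKM, for which limma stands in. Figures were drawn with matplotlib 3.10.9, and tables made with numpy 2.4.6 and pandas 2.3.3 in Python 3.11.15.

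The 10 genes and the 7 lists were chosen with earlier results of these data known, so their counts are not independent evidence. Named from each list were genes with an unadjusted p below 0.05 and the highest and lowest log2 fold change, at most 6 per list, and for Trim63 and Fbxo32 the 3 genes of highest Pearson r. Myog, Chrng, Chrnd and Runx1 were named besides these, after their values were seen. Of the markers listed, Adgre1 was not among the symbols.

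Gene positions, transcript lengths and overlaps came from GENCODE vM21 (GRCm38), matched for 22694 symbols directly and 930 by synonym, giving a length for 99.3% of the genes tested. Genes of like length lie within 0.25 log2 units. Promoters came from RefSeq (GRCm38.p6) and matched 8 of the 10 genes. Fbxo32 and Foxo4 had no entry. Alternatives were pseudocounts of 1 and 0.01, no filter, a mean of at least 1 FPKM, quantile normalization, median centring, equal total FPKM, no moderation, array weights, a covariate for Y-linked transcripts, and leaving out each mouse. Removal of each library's length trend was added after seeing the data.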

Additional observations from a re-analysis of the deposited data

How the results depend on the processing

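Of 170 values of the 10 genes under 17 alternatives, 150 kept their direction and their side of the unadjusted limit, 14 changed sign, 4 lost the limit (Fbxo30) and 2 gained it (Fbxo21 and Foxo3, without mouse 2279). Genes at an unadjusted p below 0.05, 1358 in all, numbered 717 with equal total FPKM, 3042 with array weights and 606 to 4006 with each mouse left out. Those at an adjusted p below 0.05, 8 in all, numbered 5 with a pseudocount of 1, 1 with no moderation, 572 with array weights and 6 to 1374 with each mouse left out. The count among the 10 genes was 0 with equal total FPKM and 0 to 3 with each mouse left out, and that among the list genes was 28 with array weights and 8 to 34 with each mouse left out. Array weights turned the log2 fold change of Trim63 to −0.000771, of Hdac4 to 0.088 and of Gadd45a to −0.17, and removal of the length trend turned that of Fbxo32 to 0.074 and of Hdac4 to 0.12. With each mouse left out, log2 fold changes ran from −0.10 to 0.45 for Trim63, −0.97 to 0.64 for Fbxo32, −0.43 to 0.072 for Foxo4, −0.66 to 0.21 for Klf15, −0.28 to 0.12 for Hdac4 and −0.29 to 0.40 for Gadd45a. Those of Fbxo30, Fbxo21, Foxo1 and Foxo3 kept their sign under all 17. The adjusted call of Chrna1 was lost with equal total FPKM (0.0569), the Y-linked covariate (0.0503) and no moderation (0.238). Leaving out mouse 2276, the length trend removed and array weights, which gave that library a weight of 0.0933, all bear on 1 library, and the cause of these shifts was not tested.

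With 3 mice per genotype and no read counts per gene, precision is known only from the spread between mice, which the 95% intervals of the folds carry. Those intervals also rest on a variance shared by both genotypes, although the HrasG12V mice spread more widely for most genes. No paired analysis was possible because the genotypes share no replicate numbers.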
